A study of Mus musculus with 12 samples.

Results

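The natriuretic peptide system of the heart was followed through 8 genes. They were the peptide precursors *Nppa* and *Nppb*, the receptors *Npr1*, *Npr2* and *Npr3*, the processing enzymes *Corin* and *Furin*, and *Mme*, which encodes the peptide-degrading enzyme neprilysin. All probes that carry one of these symbols were taken, 18 of 56605 probes on the array, and the symbols are 8 of 37074 gene names.

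The hearts came from 12 male C57BL6/J mice aged 5 months, with 1 array per mouse and 3 mice per group. C mice had no streptozotocin, which is toxic to pancreatic insulin cells, and D mice had received it at 50 mg/kg per day for 5 days from an age of 6 to 7 weeks and counted as diabetic at a blood glucose of 17 mM or more. C+P and D+P mice were their counterparts given pargyline, an inhibitor of monoamine oxidase (MAO), at 50 mg/kg per day for 12 weeks, and the other groups were assigned vehicle. The tissue is labelled as heart muscle, and the sources used here do not say which chambers were taken.

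Cardiomyocytes make the precursors of atrial and brain natriuretic peptide, ANP and BNP, and release them when the heart wall is stretched. Both genes are active in the fetal ventricle, are largely confined to the atria in the healthy adult, and return in the stressed ventricle. The released peptides lower blood volume and pressure through a receptor that makes cyclic GMP, while a clearance receptor and neprilysin remove them.

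*Nppa* and *Nppb* are neighbours on chromosome 4 and no annotated gene lies between them. Their start regions are shown because theirs were the largest differences between D and C among the members. Each is given as the 250 bases before the annotated start, from RefSeq (build GRCm38.p6), on the + strand. Capitals mark matches to the motifs searched. The *Nppa* window is chr4:148000472-148000721 and the *Nppb* window is chr4:147985650-147985899, part of which lies inside a longer annotated *Nppb* gene model.
Nppa: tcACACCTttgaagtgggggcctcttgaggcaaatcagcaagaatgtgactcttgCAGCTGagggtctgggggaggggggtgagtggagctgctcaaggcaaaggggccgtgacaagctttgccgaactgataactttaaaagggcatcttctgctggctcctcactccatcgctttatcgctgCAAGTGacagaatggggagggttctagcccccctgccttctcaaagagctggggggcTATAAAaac
Nppb: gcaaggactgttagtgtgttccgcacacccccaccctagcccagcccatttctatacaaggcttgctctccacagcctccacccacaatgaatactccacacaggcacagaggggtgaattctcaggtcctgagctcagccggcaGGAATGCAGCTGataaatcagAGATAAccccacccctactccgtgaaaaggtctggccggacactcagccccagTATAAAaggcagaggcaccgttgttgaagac

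Both windows hold the E-box CANNTG, read by basic helix-loop-helix factors, which 66.2% of 32851 promoter windows of this length hold on either strand. Both also hold TATAAA (12.4% of windows). It begins 9 bases before the annotated start in *Nppa* and 31 bases before it in *Nppb*. Found in the *Nppb* window alone of the pair were the GATA-factor motif in the form AGATAA (9.99% of windows) and the MCAT element CATTCC (12.6%). The latter is read on the opposite strand as GGAATG, directly before an E-box. AGGTGT, a T-box motif held by 11.8% of windows, was present in *Nppa* alone, on the opposite strand. Neither window held the *Nkx2-5* motif TCAAGTG (2.68%), the CREB motif TGACGTCA (1.55%), the AP-1 motif TGANTCA (6.75%) or the CArG box (1.47%). Only the letter forms given were searched, so a window without a match may hold another form of a motif. The *Nppa* window holds TGATAA, for example, which was not among the forms searched. These are letter matches in short windows and say nothing about binding.

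**Figure D1:**
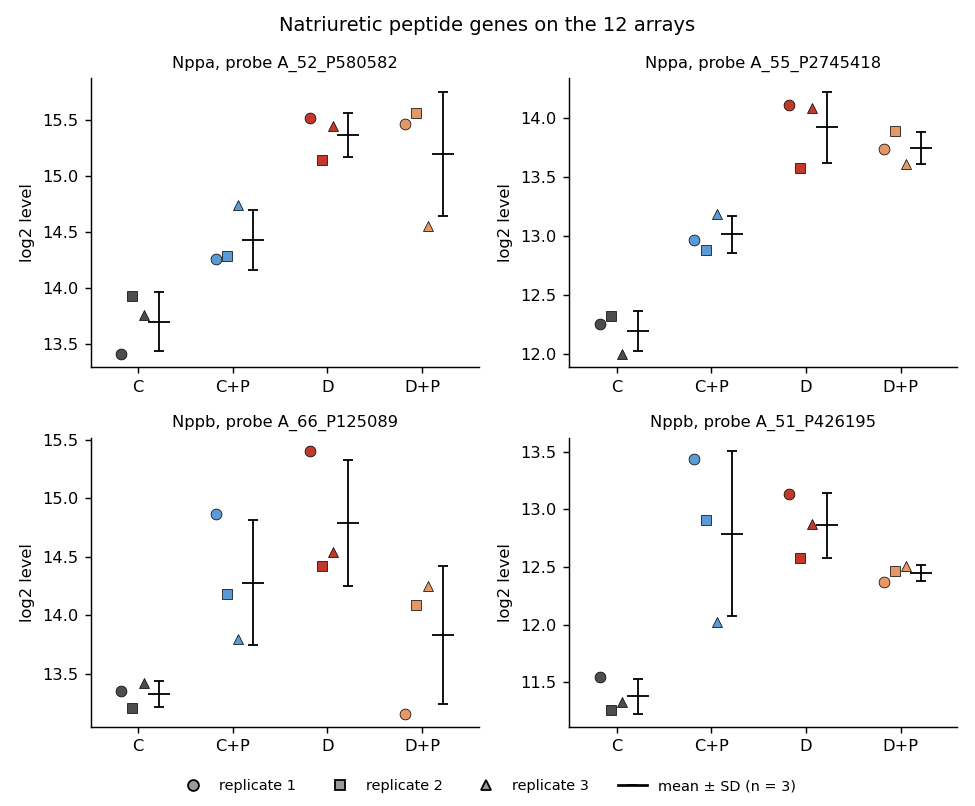
Expression of *Nppa* and *Nppb* by group, with 1 panel for each of the 4 probes. The y axis is log2 quantile-normalised intensity and differs between panels, symbols are single arrays marked by replicate number, and bars are the mean ± SD of 3 arrays. For all 4 probes the D and C+P arrays lie above the C arrays, and for *Nppb* alone all D+P arrays lie below all D arrays.

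Values below are log2 quantile-normalised probe intensities, so a difference of 1 is a doubling of signal, and levels are compared only within a probe. Testing required detection (a positive, significant signal) on 50% or more of every group's arrays, which held for 16 of the 18 probes and 7 of the 8 genes. Differences were tested with limma over all 30859 tested probes, with Benjamini-Hochberg adjustment and a threshold of 0.05. C and D arrays lay on 1 slide and C+P and D+P arrays on another, so slide and pargyline cannot be told apart. Within each slide diabetic mice lay in another row than the others, so diabetes and slide row cannot be told apart either. Between 23556 and 29231 of 59305 spots per array were well above background and 0 were saturated. The 5 cardiomyocyte markers measured were well above background on all 12 arrays.

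*Nppa* was higher in diabetic hearts, and this was the one member gene to pass the threshold in any comparison. The brightest *Nppa* probe (A_52_P580582, chromosome 4, 147376024 to 147376083, + strand, mm9, from base 676 of its transcript) read 13.41, 13.93 and 13.76 in C. In C+P it read 14.26, 14.29 and 14.74. D arrays gave 15.52, 15.14 and 15.45. On the D+P arrays it read 15.47, 15.57 and 14.56. The C arrays were the lowest and did not overlap any other group, and D lay above both non-diabetic groups. D+P replicate 3 was the one diabetic array that fell among the C+P values.

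The other *Nppa* probe (A_55_P2745418, 147375892 to 147375951, from base 544) ranked the groups alike. Its values were 12.25, 12.32 and 12.00 in C and 12.97, 12.89 and 13.19 in C+P. In D they were 14.11, 13.58 and 14.09, and in D+P 13.74, 13.89 and 13.61. Here all 6 diabetic arrays lay above all 6 non-diabetic arrays, and C+P lay wholly above C. The last 30 bases of each probe are shown, since these are the 2 sites of the mRNA on which the *Nppa* values rest.
A_52_P580582: taaatgtagatgagtggtctagtggggtct
A_55_P2745418: tctgcttgagcagatcgcaaaagatcctaa

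In D against C, which asks how diabetic and non-diabetic hearts differ without pargyline, the A_55_P2745418 probe rose 3.34-fold (log2 difference 1.74, SE 0.19, adjusted p 0.0278). For the brightest probe the difference was 1.67 (SE 0.27, adjusted p 0.215), the same within its error. Averaged over pargyline, A_55_P2745418 was higher in diabetic mice by 1.24 (SE 0.13, adjusted p 0.0126), and the brightest probe differed by 1.22 (SE 0.19, adjusted p 0.055). D replicates 1 and 3 had fewer spots well above background (23556 and 24666) than D replicate 2 (28774) and the C arrays (28472 to 29231), and the part of this in the *Nppa* difference was not tested. Of the 5 cardiomyocyte markers 2 were higher and 3 lower in D than in C, with a median difference of -0.08. *Ryr2* had the lowest, -1.12 (SE 0.30, adjusted p 0.306), and *Myh6* the highest, 0.18. Bulk tissue cannot show whether more cells carried the mRNA or each cell carried more.

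The call in D against C was fragile although the size was not. Leaving out any 1 array other than D replicate 2 lost the call of A_55_P2745418, with an adjusted p between 0.0548 and 0.277, while its difference stayed between 1.64 and 1.91. The call averaged over pargyline was kept in 8 of 12 such fits and was lost in 4. These left out C replicate 3 (adjusted p 0.0690), C+P replicate 2 (0.0657), D replicate 1 (0.0510) or, in the last, D+P replicate 2 (0.0611). Without D+P replicate 3 both *Nppa* probes passed, the brightest at 1.38 and an adjusted p of 0.0348.

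Under pargyline the distance between diabetic and non-diabetic hearts was shorter for *Nppa*. D+P exceeded C+P by 0.77 (SE 0.27) on the brightest probe and 0.74 (SE 0.19) on the other, at adjusted p of 0.573 and 0.320. C+P exceeded C by 0.73 and 0.82, at adjusted p of 1.000 and 0.526, whereas D+P and D differed by -0.17 and -0.18. The interaction, which is the diabetes effect with pargyline minus that without it, was -0.90 on the brightest probe (95% interval -1.76 to -0.04) and lay between -1.58 and -0.42 by the same interval on the other. Neither passed (adjusted p 0.704 and 0.565), with unadjusted limma p of 0.0421 and 0.00298.

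*Nppb* was higher in D, and also in C+P, than in C, but it did not pass the threshold in any of the 7 comparisons. Its brightest probe (A_66_P125089, chromosome 4, 147361247 to 147361306, + strand, mm9, from base 713 of its transcript) read 13.35, 13.21 and 13.42 in C. C+P arrays gave 14.86, 14.18 and 13.80. In D it read 15.40, 14.42 and 14.54, and in D+P 13.16, 14.09 and 14.25. Within C the 3 arrays lay close together, and both C+P and D lay wholly above them. D+P lay wholly below D, and D+P replicate 1 was lower than every C array.

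The second *Nppb* probe (A_51_P426195, 147360489 to 147360548, from base 398) read 11.54, 11.26 and 11.33 in C. It read 13.44, 12.91 and 12.02 in C+P. D gave 13.14, 12.58 and 12.87, and D+P gave 12.37, 12.46 and 12.51. All 9 treated or diabetic arrays exceeded the C arrays here, D+P replicate 1 included, so the probes differ on that mouse. This probe is shown whole and the other by its last 30 bases, to tell apart the sites that gave these 2 readings.
A_51_P426195: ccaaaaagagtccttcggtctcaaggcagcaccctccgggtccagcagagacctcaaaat
A_66_P125089: cataataaacatagcgtatttcctgctttt

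Between D and C the *Nppb* difference was 1.46 (SE 0.36, adjusted p 0.275) on the brightest probe and 1.49 (SE 0.30, adjusted p 0.223) on the second. With pargyline it had the opposite sign, -0.45 (SE 0.36) and -0.34 (SE 0.30), and both intervals held 0 (95% interval -1.25 to 0.35 and -1.01 to 0.33). C+P exceeded C by 0.95 and 1.41, at adjusted p of 1.000 and 0.426. D+P minus D was -0.96 (SE 0.36, adjusted p 0.298) and -0.42 (SE 0.30, adjusted p 0.563). With 1 array left out these differences ranged from -1.17 to -0.61 and from -0.56 to -0.28. The interaction was -1.91 (SE 0.51) and -1.83 (SE 0.43), adjusted p 0.566 and 0.565, and was the largest in size among the 16 tested member probes. Unadjusted limma p for it was 0.00356 and 0.00141, where 7.03% of all tested probes had an unadjusted p under 0.05.

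The peptide genes varied together on 1 slide and not on the other. Over 12 arrays the 2 *Nppa* probes had a Pearson correlation of 0.947 and the 2 *Nppb* probes of 0.846. Between the brightest *Nppa* and *Nppb* probes it was 0.461 over all arrays (Spearman 0.336), 0.926 over the 6 arrays of C and D and -0.685 over the 6 of C+P and D+P. With the group means removed it was -0.342. These are descriptions over arrays that share slides and groups, and the first of the slide values largely restates the difference between D and C.

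**Figure D2:**
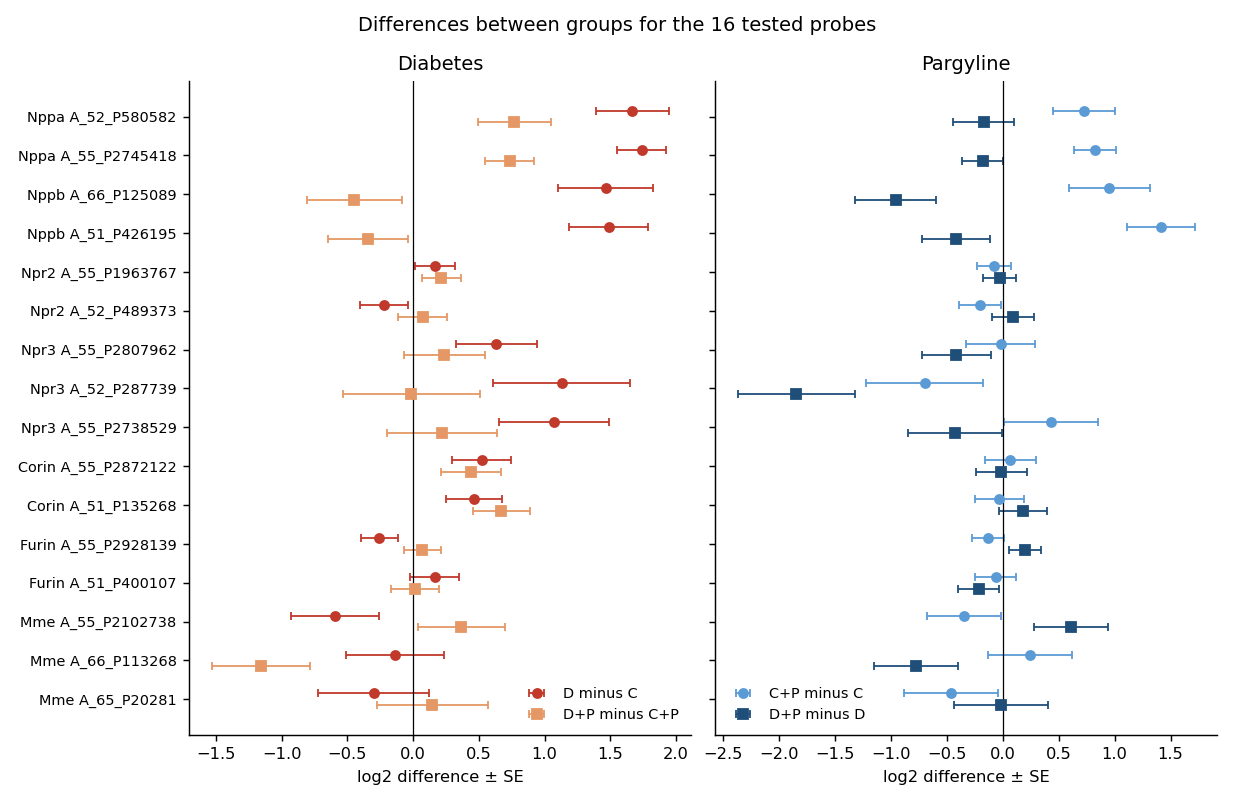
Differences between groups for the 16 tested member probes, as log2 difference ± SE from limma. The left panel gives diabetic minus non-diabetic without (circles) and with pargyline (squares), and the right panel gives pargyline minus no pargyline without (circles) and with diabetes (squares). The *Nppa* and *Nppb* probes stand farthest right of 0 in D minus C. In D+P minus D an *Npr3* probe (A_52_P287739) stands farthest left of 0, and the *Nppa* and *Nppb* probes lie left of 0 too.

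Of the receptors, *Npr1* encodes the guanylyl cyclase that answers ANP and BNP, *Npr2* the one for C-type natriuretic peptide, and *Npr3* the clearance receptor. The single *Npr1* probe (A_51_P182693, chromosome 3, 90259171 to 90259664, - strand, mm9) was well above background on 0 of 12 arrays, was not tested and gives no measure of *Npr1*. It and an *Npr2* probe cover related stretches of the 2 cyclase mRNAs. Over an ungapped overlap of 40 bases 34 were identical, which the capitals mark.
Npr1 A_51_P182693: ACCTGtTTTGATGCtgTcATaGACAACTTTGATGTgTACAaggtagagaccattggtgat
Npr2 A_52_P489373: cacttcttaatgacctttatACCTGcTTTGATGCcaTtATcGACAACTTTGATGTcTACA

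That *Npr2* probe (chromosome 4, 43661226 to 43661285) was well above background on 12 of 12 arrays. The brightest *Npr2* probe (A_55_P1963767, 43664035 to 43664094) read 10.37, 10.21 and 10.08 in C and 10.13, 10.19 and 10.12 in C+P. In D it read 10.62, 10.34 and 10.21, and in D+P 10.35, 10.29 and 10.44. The groups overlapped except that both D and D+P lay above C+P. Its diabetes difference averaged over pargyline was 0.19 (95% interval -0.04 to 0.43), and that of the other probe was -0.08 (95% interval -0.36 to 0.21). Among the 4 pairwise comparisons fitted, the widest difference of either probe was -0.22, for A_52_P489373 in D against C.

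*Npr3* means were higher in D than in C on the 2 probes that were well above background in both groups, with adjusted p of 0.483 and 0.463, and neither passed. The brightest probe (A_55_P2807962, chromosome 15, 11769666 to 11769725, - strand) read 7.67, 8.41 and 8.39 in C and 8.25, 8.11 and 8.06 in C+P. In D it read 8.31, 8.98 and 9.09, and in D+P 7.77, 8.59 and 8.78. D lay above C+P but overlapped C and D+P, and D replicate 1 lay inside the range of C. The D against C difference was 0.63 (SE 0.31, adjusted p 0.483), and that of the second probe, described next, was 1.13 (SE 0.52, adjusted p 0.463), with D wholly above C. With 1 array left out these differences ranged from 0.39 to 0.87 and from 0.93 to 1.49.

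A second *Npr3* probe (A_52_P287739, 11832733 to 11832792) was well above background on the 6 arrays of C and D and on 0 of the 6 of C+P and D+P. It read 6.98, 5.86 and 6.89 in D against 5.45, 4.01 and 4.74 in D+P, with no overlap. Since D+P was not well above background, D+P was at least 2.73-fold lower, with an adjusted p of 0.213 for the fitted difference of -1.84. This bound holds for the quantile-normalised processed signal, and normexp background correction gave a difference of -0.69. Its values were 5.20, 5.62 and 5.52 in C and 5.95, 4.32 and 3.98 in C+P, so C+P replicate 1 lay above all C arrays although it was not well above background. Slide and pargyline cannot be told apart for these differences, and the brightest *Npr3* probe differed between D+P and D by -0.41 (SE 0.31). The third probe (A_55_P2738529) was well above background on 1 array, in D+P, and gives no measure of D against C.

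*Corin* encodes the membrane protease that cuts pro-ANP, and both of its probes were higher in diabetic hearts with and without pargyline. The brightest (A_55_P2872122, chromosome 5, 72691284 to 72691343, - strand) read 12.05, 11.75 and 11.83 in C and 11.90, 12.19 and 11.74 in C+P. D arrays gave 12.78, 12.35 and 12.07, and D+P arrays 12.03, 12.62 and 12.51. D lay just above C, while D+P replicate 1 lay inside the C+P range. On the other probe (A_51_P135268, 72692288 to 72692347) the 6 diabetic arrays, 10.39 to 11.17, all lay above the 6 non-diabetic ones, 9.88 to 10.35. Averaged over pargyline the differences were 0.48 (SE 0.16) and 0.57 (SE 0.15), and neither passed (adjusted p 0.316 and 0.226). Pargyline differences of both probes lay between -0.03 and 0.18.

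*Furin* encodes a convertase that cuts pro-BNP and other precursors. Its probe A_51_P400107 (chromosome 7, 87534108 to 87534167, - strand) read 11.25, 11.31 and 11.49 in C and 11.31, 11.25 and 11.30 in C+P. In D it read 11.84, 11.40 and 11.31, and in D+P 11.56, 11.29 and 11.04. The groups overlapped, D and C+P only barely, and D minus C was 0.17 (95% interval -0.24 to 0.58). The brightest *Furin* probe (A_55_P2928139) read 17.05, 17.08 and 17.04 in C and 16.80, 17.04 and 16.94 in C+P. Its D arrays gave 16.86, 16.91 and 16.63, and its D+P arrays 16.87, 17.06 and 17.06. D and C+P lay wholly below C (the nearest C+P and C arrays differ past the second decimal), and D replicate 3 was the lowest array. The D against C difference was -0.26 (SE 0.14, adjusted p 0.518).

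Neprilysin, the product of *Mme*, breaks down ANP and other peptides. Its brightest probe (A_55_P2102738) read 15.42, 15.63 and 15.43 in C and 14.91, 15.24 and 15.28 in C+P. In D it read 15.75, 14.83 and 14.11, and in D+P 15.71, 15.49 and 15.34. D spread the widest, with replicate 1 above and replicates 2 and 3 below all C arrays, while C+P lay wholly below both C and D+P. The difference between D and C was -0.59 (SE 0.33, adjusted p 0.525), and it was -0.20 without D replicate 3 and -1.02 without D replicate 1. Of the other 3 *Mme* probes, A_66_P113268 was well above background on 2 arrays of C, 2 of C+P and none of the diabetic mice. Its mean in D+P was below that of C+P by at least 1.39-fold on the quantile-normalised processed signal (fitted difference -1.15, adjusted p 0.515), but the arrays overlapped and normexp background correction gave a difference of -0.38. The remaining 2 probes were well above background on 1 and 0 arrays.

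The brightest probes of *Furin* and *Mme* were the only 2 member probes to share a run of 20 bases with probes of other gene names or with promoter windows of other genes. The *Furin* probe shared one with 15 such probes and 43 of 32851 windows, and the *Mme* probe with 2 probes and 18 windows. Their shared stretches are shown because they bear on what these probes read. Capitals mark the run of 20 bases found in most other sequences, 53 for *Furin* and 16 for *Mme*. Whether RNA from other loci bound them was not tested. The *Furin* probe is moreover placed on 28 bases only (chromosome 7, 87541196 to 87541223), and the *Mme* probe is spread over 478 (chromosome 3, 63188148 to 63188625).
Furin A_55_P2928139: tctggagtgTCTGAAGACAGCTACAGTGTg
Mme A_55_P2102738: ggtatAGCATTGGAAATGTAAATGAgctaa

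**Figure D3:**
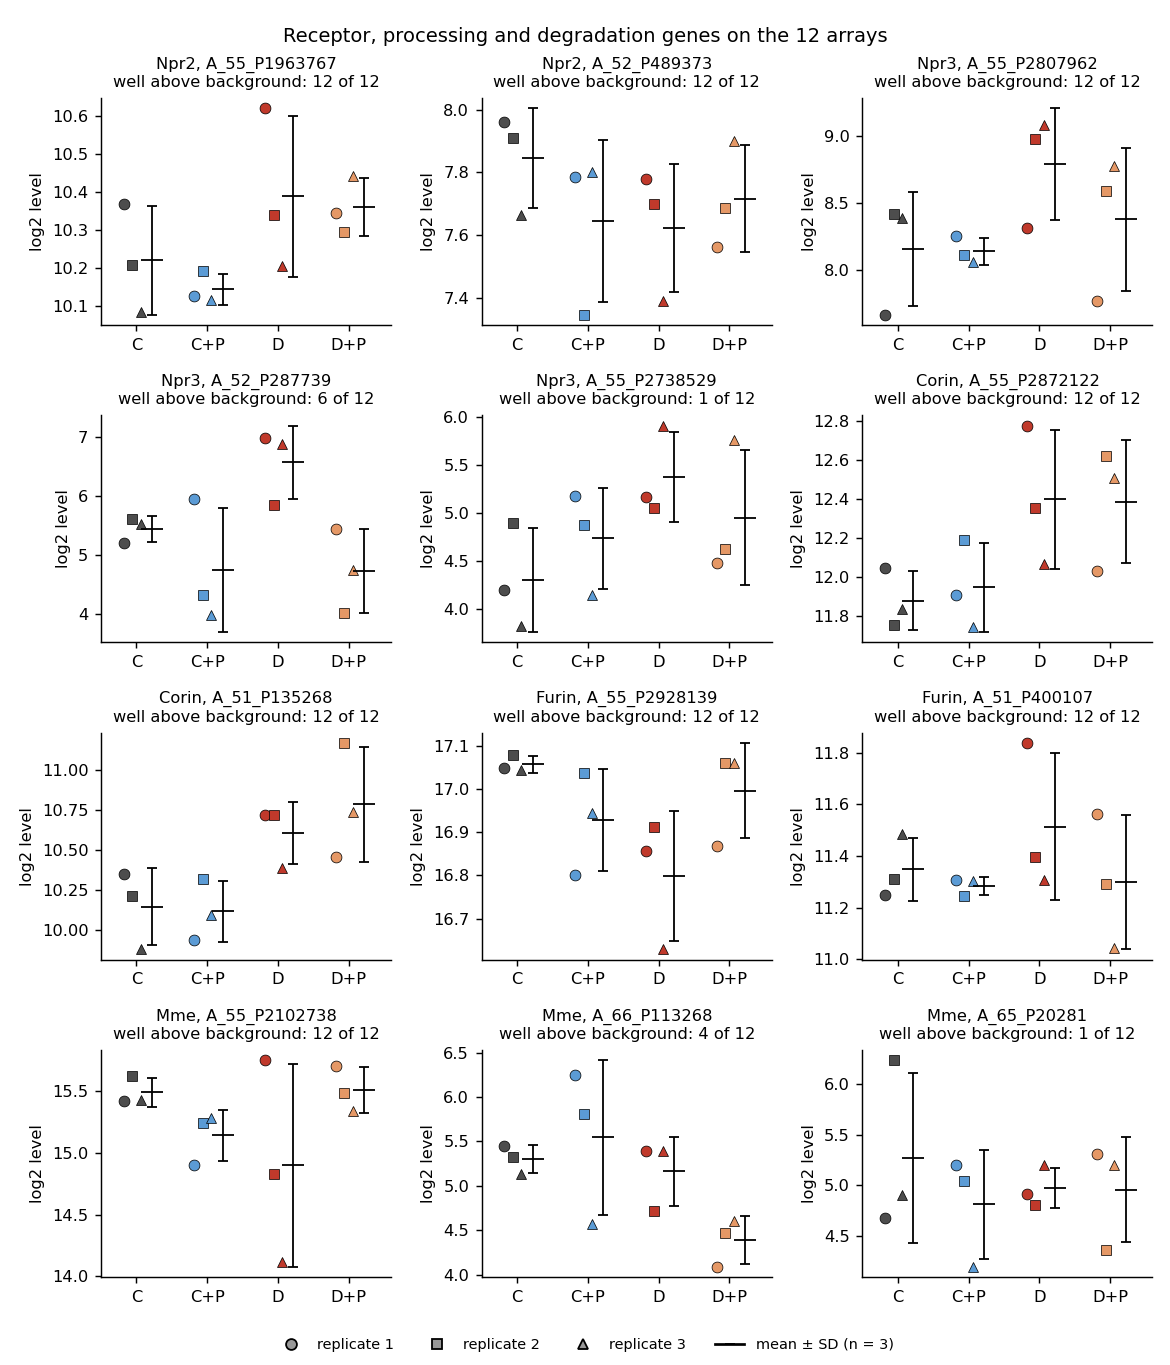
Expression of the receptor, processing and degradation genes by group, with 1 panel for each of their 12 tested probes. The y axis is log2 quantile-normalised intensity and differs between panels, symbols are single arrays, bars are the mean ± SD of 3 arrays, and the panel titles give the number of arrays well above background. The means of both *Corin* probes are higher in D and D+P, and in the other panels groups that do not overlap lie apart in either direction.

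Counted over the members, 1 of 16 tested probes passed in D against C, where 0.00648% of all tested probes did, and 1 of 16 passed in diabetes averaged over pargyline, where 0.107% did. Both calls are the same *Nppa* probe. limma called 0 of 16 in D+P against C+P (0.0454% of all probes), C+P against C (0.0324%), the D+P to D comparison (0%), pargyline averaged over diabetes (0.0551%) and the interaction (0.00648%). The methods' t-test called 0 of 16 in each of the 4 pairwise comparisons, by its Bonferroni threshold or after Benjamini-Hochberg adjustment.

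At an unadjusted limma p under 0.05 the members counted 6 of 16 in D against C, against 10.8% of all tested probes. They were both *Nppa*, both *Nppb*, 1 *Npr3* and 1 *Corin* probe, the *Npr3* one being A_55_P2738529, whose signal was not well above background in D or C. It was 4 of 16 in D+P against C+P (7.46% of all), 6 of 16 for diabetes averaged over pargyline (11.4%) and 4 of 16 in C+P against C (4.43%), the last being the 4 *Nppa* and *Nppb* probes. In D+P against D 2 of 16 did so (13.3%), for pargyline averaged over diabetes 3 of 16 (10.2%), and for the interaction 4 of 16 (7.03%), again the *Nppa* and *Nppb* probes.

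Groups did not overlap for 9 of 16 member probes in D against C, where this held for 22.3% of all tested probes. The counts were 4 of 16 in D+P against C+P (13.9%), 6 of 16 in C+P against C (15.4%) and 4 of 16 in D+P against D (17%). Probes of 1 gene are not independent, and comparisons with a common group share its arrays.

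Downstream of the receptors, cyclic GMP acts through kinases and is removed by phosphodiesterases. The gene list for the cyclic GMP pathway was wider than this and also held ligands and soluble guanylyl cyclase. Of its 23 genes on the array 20 were tested and 0 passed in any of the 7 comparisons. Averaged over pargyline their median diabetes difference was 0.14, beside -0.01 over all tested probes, and 1 of 20 had an unadjusted p under 0.05, against 11.4% of all tested probes. The largest was *Gucy1a3*, a subunit of soluble guanylyl cyclase, at 0.49 (SE 0.26, adjusted p 0.516), and the smallest *Pde10a*, a phosphodiesterase, at -0.80 (SE 0.38, adjusted p 0.464). *Nppc*, *Ostn* and *Prkg2*, which encode C-type natriuretic peptide, a ligand of the clearance receptor and a cyclic GMP kinase, were well above background on 0 arrays.

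Among 16 regulators of the peptide genes 15 were tested and 0 passed in any comparison. Their median diabetes difference averaged over pargyline was -0.02, and 2 of 15 had an unadjusted p under 0.05, against 11.4% of all tested probes. In D against C alone the median was 0.17, with 10 of 15 higher, and 3 of 15 had an unadjusted p under 0.05 (10.8% of all). Averaged over pargyline, *Tbx5*, a T-box factor of the developing heart, had the largest diabetes difference, 0.52 (SE 0.15, adjusted p 0.253), and *Klf13* the smallest, -0.28 (SE 0.14, adjusted p 0.474).

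Other genes of the stressed cardiomyocyte were mixed. Of 10 tested, 1 passed in D against C, in C+P against C and in diabetes averaged over pargyline, each time *Nmrk2*, a kinase of nicotinamide riboside, where 0.00648%, 0.0324% and 0.107% of all tested probes passed. In averaged diabetes 4 of 10 were higher and 2 of 10 lower at an unadjusted p under 0.05, against 11.4% of all tested probes in either direction. The *Nmrk2* difference was 1.85 in D against C (adjusted p 0.0253), 1.39 in C+P against C (adjusted p 0.0398) and 0.12 (SE 0.18, adjusted p 0.904) in D+P against C+P. The averaged diabetes difference was 0.98 (SE 0.13, adjusted p 0.0362) and the interaction -1.73 (SE 0.26, adjusted p 0.234). With 1 array left out its call in D against C was kept in 4 of 12 fits, those without C+P replicate 1, D replicate 1, D replicate 2 or D+P replicate 1. In the other fits the adjusted p was 0.0564 to 0.277, and the difference stayed between 1.68 and 1.93 throughout. The call in C+P against C was kept only without D replicate 1 (otherwise 0.0635 to 0.301), and the averaged one without D replicate 3 or without replicate 1 of either C+P or D+P (otherwise 0.0510 to 0.130). Averaged over pargyline, *Myh7*, the fetal myosin heavy chain, had the largest diabetes difference of the list, 1.78 (SE 0.37, adjusted p 0.134). It read 11.21 to 11.87 in the 6 non-diabetic and 12.06 to 14.35 in the 6 diabetic arrays, which did not overlap. The smallest difference in the same comparison was that of *Acta1*, skeletal actin, at -0.84 (SE 0.29, adjusted p 0.335). The median of the list there was 0.12.

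**Figure D4:**
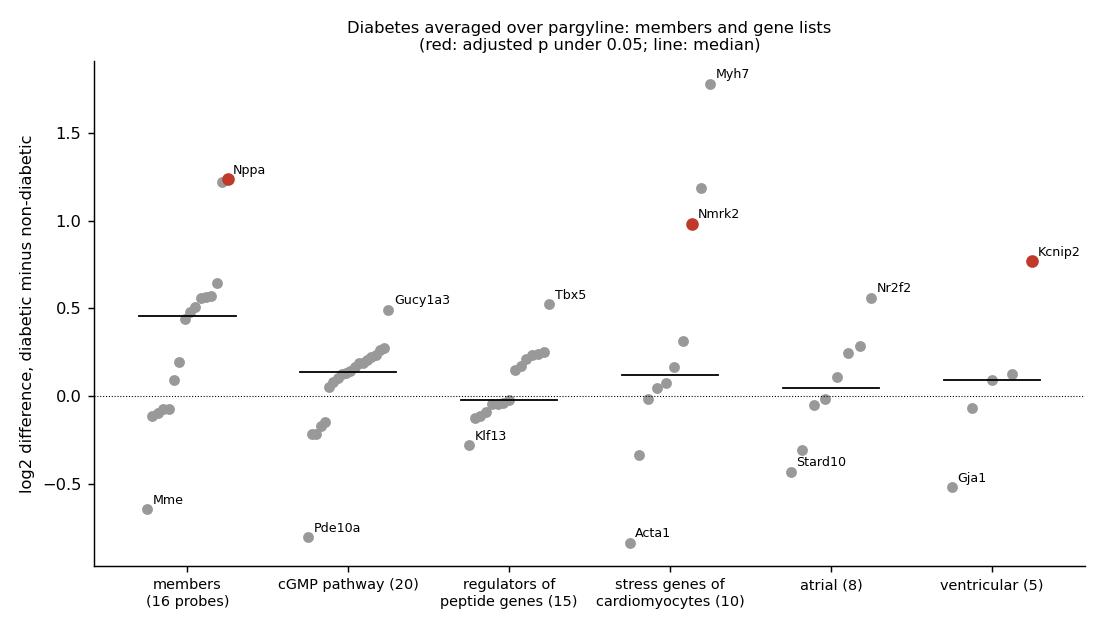
Diabetes differences averaged over pargyline (y axis, log2 difference, diabetic minus non-diabetic) for the 16 member probes and for 5 gene lists, with 1 point per probe or gene and a line at the median. Red points passed the threshold. *Nppa*, *Nmrk2* and *Kcnip2* are the 3 genes in red, and *Myh7* has the largest difference at 1.78.

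Atrial tissue carries far more *Nppa* than ventricle, so atrial genes were read beside it. Of 10 atrial genes 8 were tested. *Sln* and *Bmp10* were well above background on 0 of 12 arrays and *Myl7*, the atrial light chain, on 4 of 12. In D against C 0 of 8 passed and 2 had an unadjusted p under 0.05, *Myl7* among them, where 10.8% of all tested probes did. In D 7 of 8 were higher, against 48.9% of all tested probes, with a median difference of 0.34. Averaged over pargyline the median was 0.05, from -0.43 for *Stard10* to 0.56 for *Nr2f2*. The mean of the 8 ran from 7.10 to 7.35 in C and from 7.46 to 7.63 in D. With pargyline it ran from 7.24 to 7.58 without diabetes and from 6.59 to 7.57 with it, so D lay above C for this mean too. Its Pearson correlation with the brightest *Nppa* probe was 0.477 over 12 arrays and 0.383 without the 2 arrays farthest from the median *Nppa* level. Those 2 do not include D+P replicate 3, whose atrial mean was the lowest of all. The correlation was 0.934 over the C and D arrays, 0.345 over the C+P and D+P arrays and 0.856 with group means removed. The part of atrial content in the *Nppa* difference was not tested.

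The lowest atrial mean, 6.59, was that of D+P replicate 3, which also had the lowest *Nppa* of the diabetic mice on its brightest probe. On that array *Kcnj3*, a channel subunit well above background on all 12 arrays, read 6.21, the lowest of the 12. *Nppb*, in contrast, was highest among the D+P arrays on this one, at 14.25 and 12.51. The correlation of the brightest *Nppb* probe with the atrial mean was 0.231 over 12 arrays, 0.840 over the C and D arrays, -0.187 over the C+P and D+P arrays and -0.238 with group means removed. *Dkk3* was well above background on 10 arrays and *Stard10* on 11, and their values and those of *Myl7* enter this mean as measured.

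Of the 6 ventricular genes 5 were tested and all 5 were well above background on all 12 arrays. Their mean ran from 12.00 to 12.33. *Kcnip2*, a channel subunit, passed in diabetes averaged over pargyline (0.77, SE 0.11, adjusted p 0.0423), a call kept in 2 of 12 fits with 1 array left out, those without C+P replicate 1 or D+P replicate 1, and otherwise at 0.0758 to 0.155. In this list *Gja1*, a connexin, had the smallest difference, -0.52 (SE 0.21, adjusted p 0.391). Of the endothelial, fibroblast, smooth muscle, red cell and leukocyte markers 0 passed in any comparison. The mean of the 6 leukocyte markers was 9.09 to 9.34 in C and 8.80 to 9.02 in D, and 9.15 to 9.45 in C+P and 8.90 to 8.91 in D+P. In averaged diabetes 2 of 6 were lower at an unadjusted p under 0.05 (11.4% of all tested probes in either direction). The mean was thus lower in diabetic mice where *Nppa* was higher, and its part in the results was not tested. No adipocyte marker was well above background on every array.

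**Figure D5:**
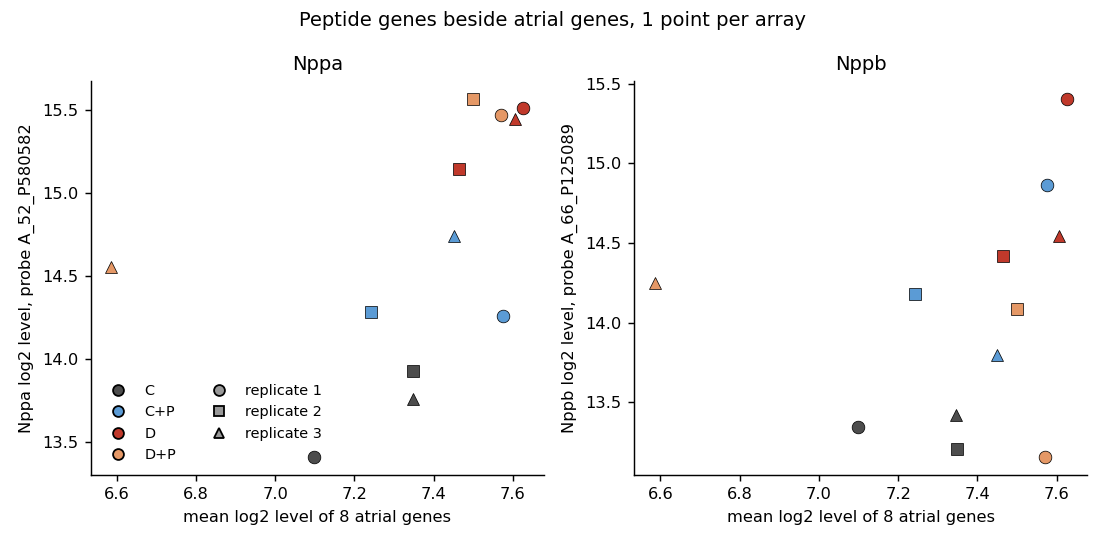
Level of the brightest *Nppa* probe (left) and the brightest *Nppb* probe (right) on the y axis against the mean of 8 atrial genes on the x axis, all as log2 quantile-normalised intensity, with 1 point per array coloured by group and shaped by replicate number. D+P replicate 3 stands apart at an atrial mean of 6.59, and the C arrays lie lowest for *Nppa*.

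The genes whose pattern was most like that of each peptide were sought over the 12 arrays among tested probes with a gene name. Clone, transcript and predicted gene names were left out. For the brightest *Nppa* probe they were *Tbx20* (Pearson 0.894), *Lrrc16b* (0.883) and *Gas1* (0.873). With group means removed these correlations were 0.805, 0.609 and 0.603. *Tbx20*, a T-box factor of the heart and one of the regulators above, averaged 9.74 in C and 10.16 in D, and with pargyline 9.94 (C+P) and 9.99 (D+P). *Lrrc16b* was well above background on 0 arrays. For *Nppb* they were *Arfgap3* (0.958), *Ubxn2a* (0.908) and *Ankrd33b* (0.905), which with group means removed gave 0.984, 0.770 and 0.827. The highest of 30859 correlations over 12 arrays, after those names were left out, are descriptions, and the arrays share slides and groups.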

How the data were processed

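Total RNA (200 ng per heart) was labelled with Cy3 and hybridised to single-channel Agilent arrays. The deposited scanner files hold spot intensity on a linear scale, background-subtracted and detrended by Feature Extraction (12.0.0.7 in the file headers, another version in the methods of the study), with deposited flags of 0 or 1 per spot that score detection, outliers and saturation. The deposited series table holds the authors' quantile-normalised intensity for 47757 spots.

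Intensities were log2 transformed and quantile normalised between arrays, without control spots and outliers, and repeated spots were averaged. Groups came from the labels, with 3 mice each. Probes were fitted with limma 3.58.1 in R 4.3.3 (package data.table, version 1.17.8, with 8 residual and 2.62 prior degrees of freedom) and 7 contrasts, two-sided, after checks on simulated data. Each member is described from its brightest probe, and a listed gene is named where it passed, was its list's extreme in averaged diabetes or is an atrial marker. Members and lists were chosen with earlier results of these data known. A level not well above background on any array of a group gives only a bound, from the lowest signal well above background. Array number limits the precision: an exact permutation test of 3 against 3 cannot go below 0.10. Probe coordinates are mm9, as deposited. Probe sequences are those of the scanner files. Motif searches and figures used Python 3.11.15 and matplotlib 3.10.9.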

Additional observations from a re-analysis of the deposited data

Results flagged for a closer look

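For *Nppb* the arrays with pargyline moved opposite ways in non-diabetic and diabetic mice. All C+P arrays were above all C arrays and all D+P arrays below all D arrays, on both probes. The difference between these effects was tested as the interaction, which was -1.91 on A_66_P125089 and -1.83 on A_51_P426195 and did not pass (limma adjusted p 0.566 and 0.565). Over 20 alternatives each, the sign held in 20 of 20 for both probes and none passed, with adjusted p between 0.252 and 0.964 for the first and between 0.179 and 0.956 for the second.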

How the results depend on the processing

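Among the 16 tested member probes, the count past the threshold in D against C was 1. It was 2 with array weights, and 0 with values that were not positive and significant set to missing, with only the 2 groups compared, with the methods' t-test and with the replicate block. Leaving out 1 array gave 0 to 1. In diabetes averaged over pargyline the count of 1 became 2 with 75th percentile scaling, probes well above background on all 12 arrays, missing values, array weights or the authors' series table, and 0 with the replicate block. Leaving out 1 array gave 0 to 2. Array weights gave 2 in C+P against C, in place of 0. Over all probes array weights called 0.343% in D against C, 1.29% in averaged diabetes and 0.596% in C+P against C. Every member called under any alternative was *Nppa*, except 1 *Nppb* probe in C+P against C under array weights. For the remaining alternatives and comparisons the counts were as in the report. The replicate numbers did not pair the mice: same-numbered arrays of different groups correlated, in their deviations from the group means, between -0.204 and 0.200.

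The 29 differences with an unadjusted p under 0.05 kept their sign under all 613 alternatives. Of the other 83, 43 changed sign at least once, in 111 of 1743 alternatives. Setting undetected values to missing moved the median of all probes in D against C to -0.26. Slide could not be added to the comparisons of pargyline, and in the interaction, a difference of differences within slides, a shift shared by a slide cancels. With slide as a block in diabetes averaged over pargyline, 1 member probe passed. Signal over background limits *Npr1*, *Mme* and 2 of 3 *Npr3* probes.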
